A study of Saccharomyces cerevisiae with 24 samples.

Results

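The inheritance of mRNA levels was examined in a diploid hybrid of the budding yeast strains BY and RM by setting the level of each gene in the hybrid beside its level in both parental strains. BY4741 is a laboratory strain and RM11 a vineyard-derived strain, and their genomes differ at many single bases, which lets a read be assigned to one allele. The hybrid (BY4741xRM11-1alpha, strain WL201) was an a/alpha diploid, and the parents were haploid BY4741 and RM11-1a cells of mating type a grown together in a co-culture. For each group 4 technical-replicate cultures were grown at 30 °C and 250 rpm from an OD600 of 0.1 to an OD600 of 1.0, and 12 cDNA libraries were sequenced, which the labels do not tie to the cultures. Of 4442 gene pairs (a BY gene and its RM counterpart), the 2661 whose 2 alleles together had 100 or more reads in each group were placed. The minimum held for each group by itself, so a gene very low in 1 group was left out however high it was in the other. Some large differences are therefore missing from the class counts. The other pairs fell short in 1 group (115 in the hybrid, 201 in the co-culture) or in both (1465), and the placed pairs held 96.3% of the hybrid reads and 96.5% of the co-culture reads. At the edge of this minimum, 9 pairs had exactly 100 reads in the shallower group, among them PPT2 with 100 hybrid and 141 co-culture reads, and 11 pairs had 99, among them TVP23 with 99 and 144.

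A hybrid level can lie at the mean of its parents (additive), at the level of one parent (dominance of that parent's level), or outside the range of both. An allele whose expression depends on its own promoter or transcript keeps its difference inside the hybrid, whereas a difference carried by a regulator that diffuses through the cell acts on both alleles alike. Yeast adds a further layer, because a/alpha diploids form the a1-alpha2 repressor, which shuts off genes of haploid cells, while alpha2 shuts off genes that only a cells express.

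The hybrid level was the sum of both allele columns divided by the library total, the BY parent was the BY column of the co-culture divided by its own total, and the RM parent was the RM column divided by its own. These levels are given in CPM, the reads of a gene pair scaled to a common column total. They count reads over sites that differ between the strains, so they can be compared between groups for one gene but not between genes. The hybrid held 2556935 reads (165503 to 232428 per library) and the co-culture 2576715 (199838 to 227175), of which 1164380 were BY and 1412335 RM. Libraries of one group that differed by no more than sampling noise were summed, leaving 7 summed replicates of the hybrid and 5 of the co-culture, each of which gives both a BY and an RM parent value. Hybrid replicate 6, a single library, stood farthest from the others, with a chi-square per degree of freedom against them of up to 1.55. Without it 600 pairs lay above both parents, 323 below and 123 between, against 597, 333 and 126 with it. The summed replicates outnumber the 4 cultures, so some share a culture, and p-values measure only the spread between these libraries, which may be technical. Ploidy, mating type, the RM isolate (RM11-1alpha against RM11-1a) and growth in separate flasks all go with hybrid against co-culture and cannot be told apart. In such bulk samples a change in the make-up of the cells and a change of RNA per cell cannot be told apart either.

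Differences from the parents were frequent and mostly modest. A difference was called at an adjusted p under 0.05 by the quasi-likelihood test of edgeR, adjusted over all 2661 pairs. The hybrid was called different from the BY parent at 1512 pairs (56.8%), higher at 871 (32.7%) and lower at 641 (24.1%). From the RM parent it was called different at 1510 pairs (56.7%), higher at 958 (36.0%) and lower at 552 (20.7%). The parents were called different from each other at 1006 pairs (37.8%), with RM higher at 440 (16.5%) and lower at 566 (21.3%). Against the mean of the log2 parent levels, the midparent, the hybrid was called different at 1614 pairs (60.7%), higher at 1009 (37.9%) and lower at 605 (22.7%). The hybrid comparisons share the hybrid libraries, so their calls are not independent of each other. Both parent values of a co-culture replicate share libraries too, and the test of RM against BY did not use that pairing.

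The 3 calls together placed each pair. The hybrid lay above both parents at 597 pairs (22.4%), below both at 333 (12.5%), and between them, different from each, at 126 (4.74%). It was BY-like at 258 pairs (9.7%), meaning that the parents differed and the hybrid differed from RM but was not called different from BY, and RM-like at 290 (10.9%). At 638 pairs no difference was called, and at 419 the pattern of calls left the place unresolved; neither shows that levels were equal. Distances were mostly small. Pairs above both stood 0.63 (log2) over BY and 0.61 over RM at the median, pairs below both stood at -0.59 and -0.56, and 66 of the 597 and 21 of the 333 were at least 2-fold from each parent. The split into above and below depends on the scaling. Under TMM factors the median of all pairs, hybrid minus midparent, moved from 0.12 to 0.01. The counts became 425 above (16.0%), 458 below (17.2%), 110 between (4.13%), 251 BY-like (9.43%) and 296 RM-like (11.1%). All 425 were among the 597, and all 333 were among the 458.

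**Figure D1:**
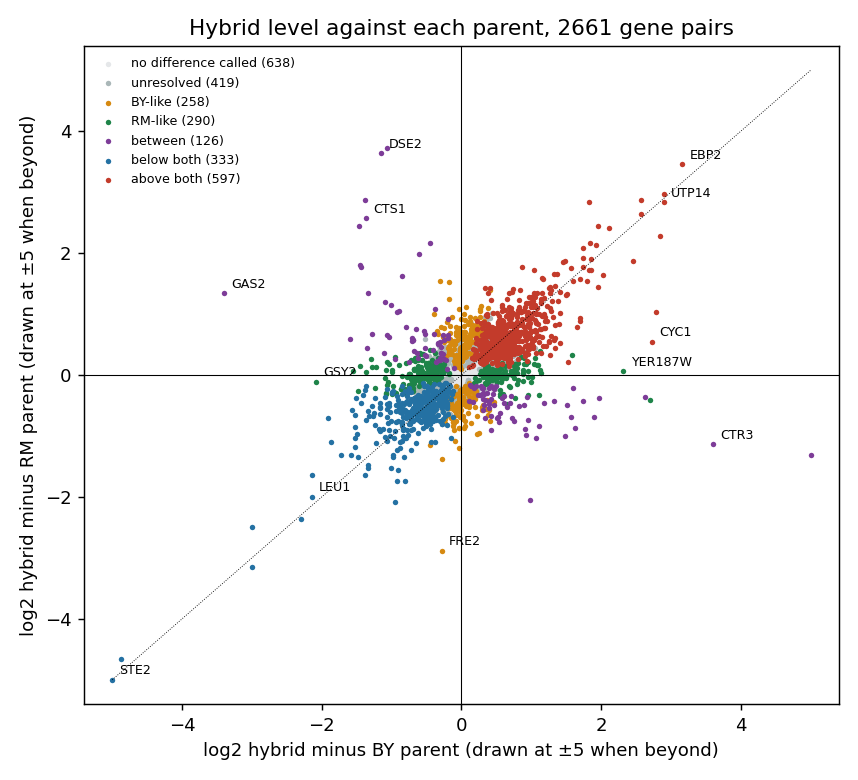
Each point is a gene pair, with log2 hybrid minus BY parent on the x axis and log2 hybrid minus RM parent on the y axis, coloured by class; the dotted line marks equal distance from both parents. Pairs above both (597) fill the upper right, pairs below both (333) the lower left with STE2 drawn at the edge, and pairs between the parents (126) the upper left and lower right.

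Composition moved with the direction of the change. The share of A in the coding strand of the gene had a median of 34.3% in pairs above both, 29.3% in pairs below both and 32.5% in all pairs, and across genes its rank correlation with hybrid minus midparent was 0.505 (n = 2648, all from the same libraries). In the 662 pairs with the lowest A share (17.4 to 30.1%) 51 lay above both and 204 below both, and in the 662 with the highest (34.6 to 45.4%) 278 above and 14 below. With a smooth trend on A share removed from every column, 543 pairs were above both (20.4%), 197 below both (7.4%), 115 between (4.32%), 246 BY-like (9.24%) and 338 RM-like (12.7%). Of the 597 pairs above both 405 kept that class, and of the 333 below both 162 did. Lists below are therefore given with their counts after that correction, and a technical or biological source of the trend was not tested. Without that correction the shares over all pairs were 22.4% above both, 12.5% below both and 4.74% between. A further 9.7% were BY-like and 10.9% RM-like, and the list counts stand against these shares.

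Genes that build ribosomes mostly lay above both parents in the hybrid. Ribosome biogenesis factors process ribosomal RNA and assemble it with ribosomal proteins in the nucleolus. Of 86 placed members, 76 lay above both parents (62 under TMM, 63 with the A-share trend removed), 4 were RM-like and none was below both, with a median hybrid minus midparent of 0.75 against 0.12 over all pairs. The parents themselves differed little, with a median RM minus BY of 0.09 and with 18 members called higher and 4 called lower in RM. The median A share of these 86 genes was 35.0%.

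EBP2, needed for maturation of the large subunit's RNA, stood farthest above both parents. Its hybrid level ran from 478 to 547 CPM with a median of 512. Its levels were 39.5, 69.4, 36.5, 66.9 and 51.5 in the BY parent, and 24.4, 45.9, 55.9, 51 and 42.1 in the RM parent. Every hybrid value lay far above every parental value, which the rule for the farthest pairs required, and the parents overlapped. In log2 the hybrid stood 3.16 (SE 0.13) above BY and 3.46 (SE 0.13) above RM (adjusted p 7.69e-38 and 2.85e-41). UTP14, a subunit of the small-subunit processome, ran from 712 to 841 CPM in the hybrid (median 766). Its levels were 119, 97.2, 109, 95.2 and 108 in the BY parent, and 65.1, 106, 133, 104 and 109.6 in the RM parent. The hybrid again stood clear of both parents, as that rule required, by 2.90 (SE 0.10) against BY and 2.84 (SE 0.10) against RM. CBF5, the pseudouridine synthase of box H/ACA particles, went from 1845 to 2152 CPM in the hybrid (median 2016). Its levels were 514, 576, 688, 535 and 700.3 in the BY parent, and 578, 513, 576, 652 and 577 in the RM parent. The parents overlapped and the hybrid lay above them all. Its distance was 1.75 (SE 0.06) from BY and 1.78 (SE 0.06) from RM.

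The other named members were likewise above both parents in the hybrid. SAS10, also of the small-subunit processome, had medians of 385 CPM in the hybrid, 49.4 in BY and 55.2 in RM. NOP53, a factor of late large-subunit assembly, had medians of 386 CPM in the hybrid, 56.6 in BY and 55.9 in RM, and LOC1 of 402 CPM in the hybrid, 67.7 in BY and 64.4 in RM. BUD22 had medians of 245 CPM in the hybrid, 38.2 in BY and 51 in RM and the methyltransferase SPB1 of 196 CPM in the hybrid, 41.6 in BY and 27.6 in RM. In each of these 5 genes every hybrid value lay above every parental value, which the rule that chose them required. Over all 2661 pairs the hybrid values overlapped neither parent at 466 (17.5%). Among the 10 pairs that stood farthest above both parents, 3 were no ribosome biogenesis genes. These were IMH1, a Golgi protein, with medians of 394 CPM in the hybrid, 87.5 in BY and 80.1 in RM, MLP1, a nuclear pore basket protein, with 475 CPM in the hybrid, 119.8 in BY and 118 in RM, and COG8, of a Golgi tethering complex, with 199 CPM in the hybrid, 30.9 in BY and 51 in RM. All 10 were above both in each alternative setting that could place them. These settings refit the libraries from which the 10 were chosen as the farthest above both, so their stable class is no independent support.

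The promoters of EBP2, UTP14 and SAS10 are shown because ribosome biogenesis genes are known to share 2 short promoter motifs, PAC (GATGAG) and RRPE (AAAATTTT). The windows run from 250 bases before to 50 bases after the annotated gene start in RefSeq's R64 assembly (the reference strain is of BY's background), on the gene's strand, and capitals mark either motif on either strand: EBP2 is at chrXI:125509-125808 (plus strand), UTP14 at chrXIII:82840-83139 (plus strand) and SAS10 at chrIV:182969-183268 (minus strand).
EBP2: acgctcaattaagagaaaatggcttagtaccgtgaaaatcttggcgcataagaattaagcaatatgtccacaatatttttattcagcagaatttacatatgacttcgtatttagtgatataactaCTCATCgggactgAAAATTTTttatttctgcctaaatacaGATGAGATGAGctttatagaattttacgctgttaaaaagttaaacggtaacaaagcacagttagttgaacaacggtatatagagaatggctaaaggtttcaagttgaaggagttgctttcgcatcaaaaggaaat
UTP14: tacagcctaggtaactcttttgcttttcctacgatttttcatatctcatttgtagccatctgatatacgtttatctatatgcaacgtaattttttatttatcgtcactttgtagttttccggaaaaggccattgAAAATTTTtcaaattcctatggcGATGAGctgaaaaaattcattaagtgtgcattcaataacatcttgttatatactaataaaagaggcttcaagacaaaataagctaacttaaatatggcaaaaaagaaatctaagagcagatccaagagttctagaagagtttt
SAS10: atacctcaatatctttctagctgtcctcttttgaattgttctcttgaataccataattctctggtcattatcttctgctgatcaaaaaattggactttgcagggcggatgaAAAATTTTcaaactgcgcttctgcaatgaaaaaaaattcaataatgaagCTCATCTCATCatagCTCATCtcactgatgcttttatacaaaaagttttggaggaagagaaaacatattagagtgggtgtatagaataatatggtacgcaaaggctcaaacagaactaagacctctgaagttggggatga
In EBP2 an RRPE lies 112 to 105 bases before the start, between a reverse PAC at 125 to 120 and an overlapping pair of forward PAC copies at 85 to 75. In UTP14 the RRPE (116 to 109) and the PAC (93 to 88) lie in the same order. PAC was found in 90.7% of the promoters of the 86 placed ribosome biogenesis genes, in 36.7% of pairs above both and in 14.8% of pairs below both, against 20.4% of all 6001 promoters. Outside that list 28.8% of the pairs above both had it. RRPE was in 81.4% of the list, 26.4% of pairs above both and 5.14% of pairs below both, against 9.03% of all promoters. These matches describe letters in the reference sequence and not sites in use.

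Polymerase I and III genes and cytosolic ribosomal proteins also often lay above both parents. Of all pairs 22.4% did (16.0% under TMM, 20.4% with the trend removed). Of 12 placed subunits of RNA polymerases I and III, which make ribosomal and transfer RNA, 7 lay above both (6 under TMM, 9 with the trend removed) and none below. The polymerase I subunit RPA34 had medians of 1430 CPM in the hybrid, 419.8 in BY and 349.8 in RM, and the polymerase III subunit RPC53 of 419.6 CPM in the hybrid, 170 in BY and 169 in RM. Of 49 placed ribosomal proteins, 25 lay above both, 9 were BY-like, 4 RM-like, 2 between and 1 below (21 above under TMM, 37 with the trend removed). Their distances were smaller than those of the assembly factors, with a median hybrid minus midparent of 0.43 against 0.75. RPL3 had medians of 10850 CPM in the hybrid, 7840 in BY and 8530 in RM, and its distance was 0.48 (SE 0.03) from BY and 0.38 (SE 0.03) from RM. RPP1A, an acidic stalk protein, had medians of 4767 CPM in the hybrid, 3014 in BY and 3662 in RM. Many ribosomal protein genes have a near-identical paralogue, so reads could be split between copies. Mitochondrial ribosomal proteins showed 10 of 29 above both and none below, but only 3 under TMM and 4 with the trend removed. Neither of these corrected counts exceeds the share of all pairs under the same correction.

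Of 7 placed pyrimidine synthesis genes 3 lay above both, 2 below both and 2 were RM-like, also under TMM. With the trend removed, however, 5 lay above both, none below, 1 was RM-like and 1 was unresolved. By comparison, 22.4% of all pairs lay above both, 12.5% below both and 10.9% were RM-like. URA1, dihydroorotate dehydrogenase, had medians of 7813 CPM in the hybrid, 4256 in BY and 3791 in RM with every hybrid value above every parental one, and URA4, dihydroorotase, of 2104 CPM in the hybrid, 1200 in BY and 1356 in RM. The RM allele of URA1 gave fewer hybrid reads than the BY allele (log2 RM over BY -0.44 (SE 0.02), adjusted p 2.05e-83), while the RM allele of URA4 gave more (0.25 (SE 0.04)). YHB1, a flavohaemoglobin that detoxifies nitric oxide, also stood above both with medians of 4399 CPM in the hybrid, 1943 in BY and 2311 in RM. SIR3, a silencing protein among the regulators known to vary between these strains, stood above both with medians of 296 CPM in the hybrid, 188 in BY and 187 in RM.

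Below both parents, genes of haploid mating cells had the largest distances. Pairs named here or in later paragraphs as farthest below both had to have hybrid values that overlap neither parent. Their lack of overlap is therefore no separate support. STE2, the alpha-factor receptor of a cells, ran from 42 to 69 CPM in the hybrid (median 60.8). Its levels were 5813, 5853, 5762, 5408 and 5639 in the BY parent, and 8267, 8370, 8536, 7823 and 8269 in the RM parent. The hybrid values were all far under the parental ones, at -6.67 (SE 0.07) against BY and -7.21 (SE 0.06) against RM. STE6, the exporter of a-factor, ran from 36.5 to 93.4 CPM (median 77.4). Its levels were 2363, 2085, 2256, 2219 and 2132 in the BY parent, and 1928, 1956, 1804, 1844 and 1892 in the RM parent. Again no hybrid value came near a parental one. Its distance was -4.87 (SE 0.08) from BY and -4.65 (SE 0.08) from RM. Both placed members of the a-specific list were thus below both parents. The other a-specific genes in the files had under 100 hybrid reads and were not placed. BAR1, the protease that degrades alpha-factor, had 16 hybrid reads against 819 BY and 1357 RM reads. MFA1, a gene for a-factor, had 2 against 388 and 228, and ASG7 had 20 against 39 and 34.

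STE2 and STE6 promoters are shown because both hold one half-site of the alpha2 operator (CATGTAA, in capitals), which 3.67% of all promoters hold on either strand in this window. STE2 is at chrVI:82330-82629 (plus strand) and STE6 at chrXI:46246-46545 (minus strand).
STE2: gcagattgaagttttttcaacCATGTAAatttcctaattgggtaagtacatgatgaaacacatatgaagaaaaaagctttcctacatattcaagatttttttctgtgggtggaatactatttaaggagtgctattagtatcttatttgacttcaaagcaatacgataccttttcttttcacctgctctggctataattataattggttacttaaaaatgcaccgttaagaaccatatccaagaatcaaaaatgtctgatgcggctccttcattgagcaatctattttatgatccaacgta
STE6: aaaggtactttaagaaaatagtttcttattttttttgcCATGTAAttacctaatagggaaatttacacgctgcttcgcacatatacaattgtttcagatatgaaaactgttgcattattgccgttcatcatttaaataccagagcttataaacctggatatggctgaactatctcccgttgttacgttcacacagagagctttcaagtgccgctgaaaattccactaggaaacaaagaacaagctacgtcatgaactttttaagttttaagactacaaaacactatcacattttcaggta
The half-site begins 229 bases before the start in STE2 and 212 bases before it in STE6. The a1-alpha2 operator as a whole was searched only as 1 strict pattern, with fixed letters at both ends and a fixed spacing. That pattern matched none of the 6001 promoters in this window, including those of the 4 placed haploid-specific genes. Because it matched nowhere, the search cannot show whether any of these promoters holds the operator.

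All 4 placed genes of the haploid-specific list were below both parents too, also under TMM and with the trend removed. FAR1, which arrests the cycle in response to pheromone, had medians of 120 CPM in the hybrid, 952 in BY and 1037 in RM. SST2, which turns off the pheromone G protein, had medians of 59.4 CPM in the hybrid, 502 in BY and 367 in RM, and RDH54, a recombination ATPase, of 85.7 CPM in the hybrid, 416 in BY and 476 in RM. AMN1, an inhibitor of mitotic exit, had medians of 182 CPM in the hybrid, 743 in BY and 302 in RM, and in it the parents differed as well, with RM minus BY at -1.21 (SE 0.09). The hybrid of AMN1 was nevertheless below the lower parent, at -0.70 (SE 0.11) against RM. The other haploid-specific genes in the files had under 100 hybrid reads, with 27 hybrid reads against 263 BY and 388 RM reads for GPA1, the pheromone G protein alpha subunit, and 1 against 125 and 252 for FUS3, a pheromone kinase. Of 4 placed pheromone-response genes 1 lay below both, 1 was BY-like and 2 were RM-like, also under TMM and with the trend removed. The 1 below both was AGA1, an agglutinin anchor induced by pheromone, with medians of 86.7 CPM in the hybrid, 388 in BY and 266 in RM. STE11 was BY-like and STE7 RM-like. The pheromone-pathway kinase STE20, which is not haploid-specific, was RM-like with medians of 447 CPM in the hybrid, 307 in BY and 436 in RM. Markers of alpha cells were low in both groups, at 3 hybrid, 2 BY and 1 RM reads for STE3 and 28, 5 and 12 for SAG1. The meiotic genes in the files were not placed and were mixed in direction. IME1 had 47 hybrid, 38 BY and 0 RM reads, IME2 had 33, 18 and 12, and SPO11 had 22, 24 and 14. DMC1 had 12, 38 and 4, and SPS1 had 35, 11 and 17.

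**Figure D2:**
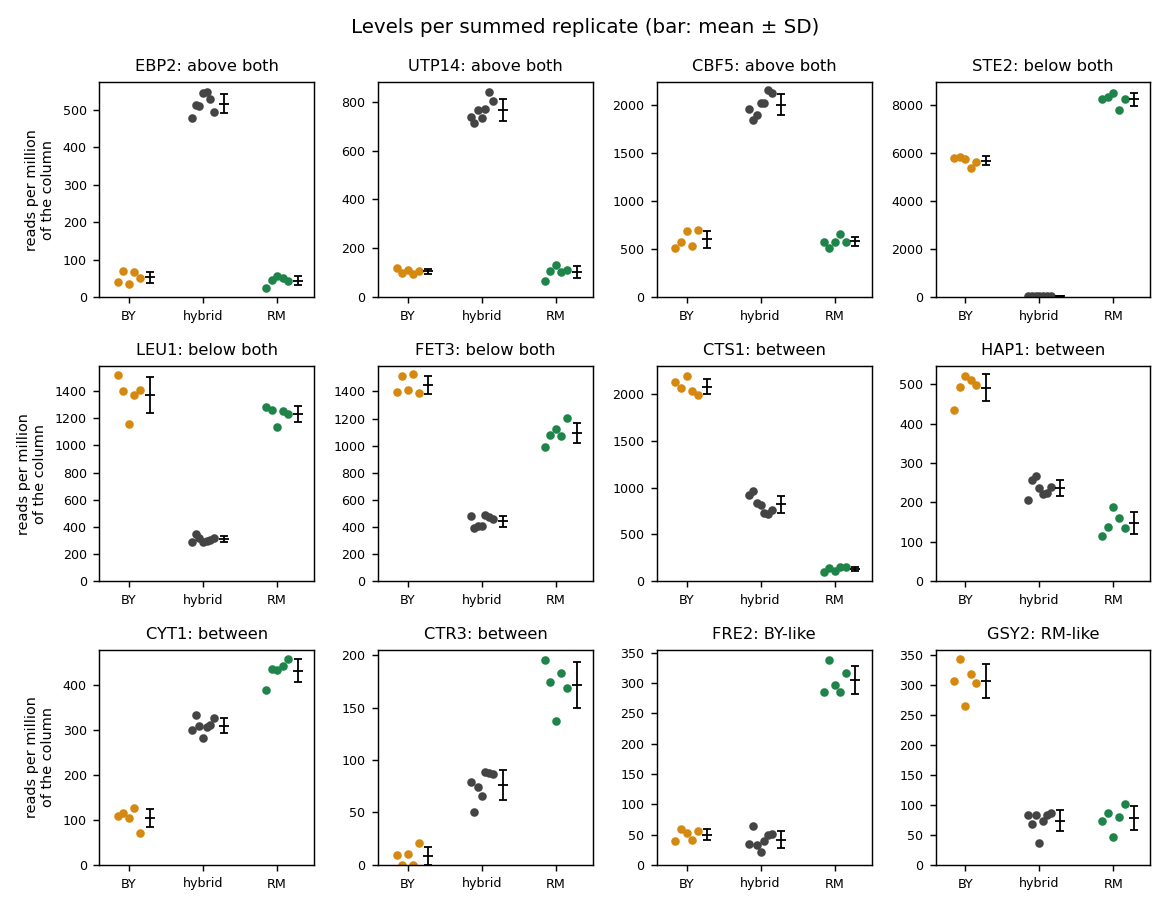
Levels (CPM) for 12 genes, with 1 point per summed replicate (5 for each parent, 7 for the hybrid) and bars at the mean ± SD; every y axis is linear and starts at 0. EBP2, UTP14 and CBF5 were highest in the hybrid, STE2, LEU1 and FET3 lowest in it, CTS1, HAP1, CYT1 and CTR3 between, FRE2 at the BY level and GSY2 at the RM level.

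Genes at several steps of leucine synthesis were lower in the hybrid. The share of all pairs below both parents was 12.5% (17.2% under TMM, 7.4% with the trend removed). Of 9 placed genes of leucine and branched-chain synthesis 5 lay below both (5 under TMM, 3 with the trend removed) and none above. LEU1, isopropylmalate isomerase, ran from 291 to 347 CPM in the hybrid (median 306). Its levels were 1523, 1402, 1156, 1373 and 1411 in the BY parent, and 1286, 1265, 1134, 1256 and 1235 in the RM parent. All hybrid values were under all parental values, and the distance was -2.14 (SE 0.07) from BY and -1.998 (SE 0.067) from RM. OAC1, a mitochondrial transporter of oxaloacetate and isopropylmalate, had medians of 246 CPM in the hybrid, 689 in BY and 627 in RM, and BAT1, the mitochondrial branched-chain aminotransferase, of 826 CPM in the hybrid, 1710 in BY and 1778 in RM. BAT2, the cytosolic aminotransferase, did not follow and lay between the parents with medians of 238 CPM in the hybrid, 557 in BY and 107 in RM. Its RM allele nevertheless gave more hybrid reads than its BY allele (0.58 (SE 0.11), adjusted p 6.9e-06), the reverse of the parental difference of -2.29 (SE 0.12).

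Iron uptake genes were mostly below both parents, where 12.5% of all pairs lay (17.2% under TMM, 7.4% with the trend removed). Of 13 placed members of the iron regulon 9 lay below both (9 under TMM, 5 with the trend removed), 2 between, 2 BY-like and none above. FET3, the multicopper oxidase of high-affinity uptake, ran from 393 to 491 CPM in the hybrid (median 456). Its levels were 1394, 1516, 1412, 1530 and 1390 in the BY parent, and 993, 1081, 1121, 1071 and 1201 in the RM parent. The hybrid was below every parental value, at -1.72 (SE 0.06) against BY and -1.31 (SE 0.06) against RM. The siderophore transporters SIT1 and ENB1 had medians of 266 CPM in the hybrid, 711 in BY and 786 in RM for SIT1 and of 212 CPM in the hybrid, 534 in BY and 602 in RM for ENB1. The list's 2 BY-like members included FRE2, a ferric reductase, with medians of 40 CPM in the hybrid, 52.1 in BY and 296 in RM, so that the RM parent alone was high. FET4, a low-affinity transporter, lay between with medians of 269.5 CPM in the hybrid, 401 in BY and 55.9 in RM, and its RM allele gave fewer hybrid reads (-1.19 (SE 0.12), adjusted p 5.97e-23). The letters CACCC, the core of the Aft1 site, were in 76.9% of the list's promoters against 20% of all.

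The count of cell wall genes below both parents depended on the correction. Of 18 placed members 10 lay below both, 15 under TMM and 3 with the A-share trend removed, and the list's median A share was 26.5%. CWP2, a mannoprotein, had medians of 608 CPM in the hybrid, 1592 in BY and 1890 in RM and SCW10, a glucanase-like protein, of 816 CPM in the hybrid, 1612 in BY and 2007 in RM; both stayed below both with the trend removed. Of 11 stress genes under Msn2 and Msn4, 4 lay below both (4 under TMM, 2 with the trend removed) and 2 were RM-like (3 with the trend removed). For all pairs these shares were 12.5% and 10.9%. GSY2, glycogen synthase, was RM-like: its hybrid values ran from 37.3 to 87.1 CPM (median 82.6). Its levels were 306, 344, 266, 319 and 304 in the BY parent, and 73.2, 86, 47.3, 80.7 and 101 in the RM parent. The hybrid overlapped RM and lay under BY, at -2.08 (SE 0.14) against BY and -0.11 (SE 0.18) against RM. In glycolysis 3 of 6 placed genes were below both (1 with the trend removed) and none above (3 with the trend removed). PGI1, phosphoglucose isomerase, had medians of 10690 CPM in the hybrid, 16480 in BY and 18130 in RM. IRA2, a Ras inhibitor, had medians of 567 CPM in the hybrid, 801 in BY and 846 in RM and was below both, at -0.51 (SE 0.07) against BY and -0.53 (SE 0.07) against RM.

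**Figure D3:**
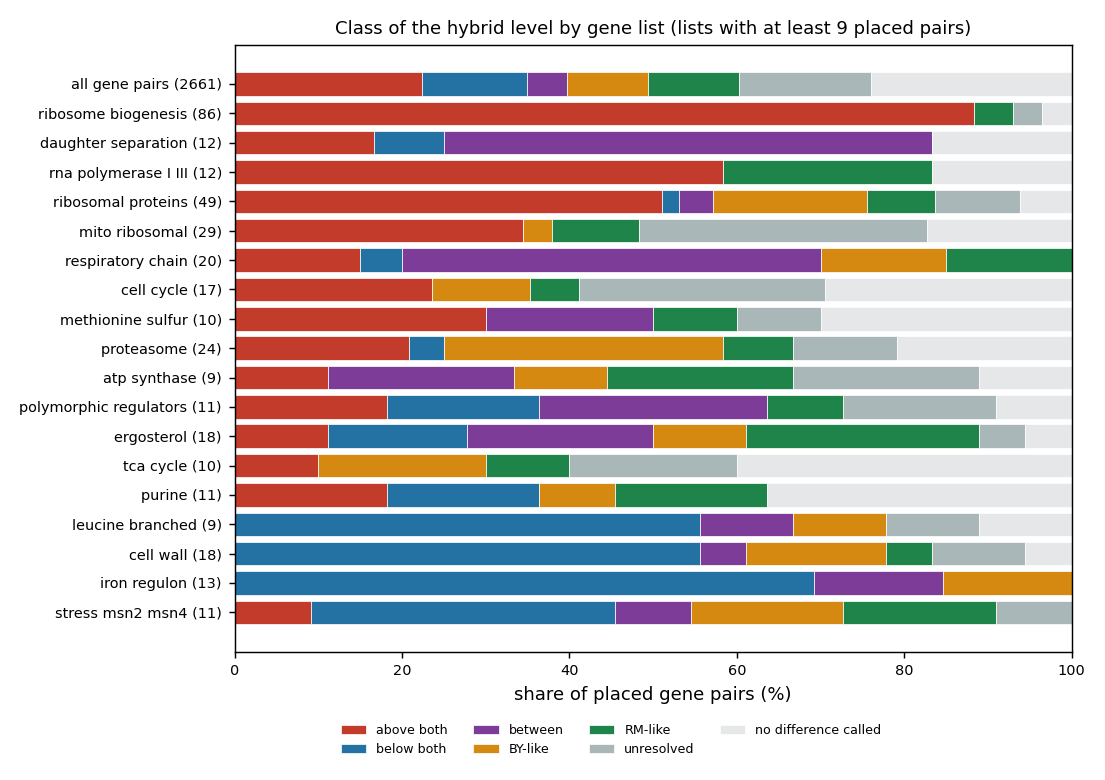
Share of placed gene pairs in each class (x axis, percent) for each gene list with at least 9 placed pairs, number of pairs in brackets, ordered by median hybrid minus midparent, with all 2661 pairs at the top. Ribosome biogenesis is nearly all above both (76 of 86), the iron regulon mostly below both (9 of 13), and daughter separation (7 of 12) and the respiratory chain (10 of 20) hold the largest shares between the parents.

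Fewer pairs lay between the parents than in any other called class, and the lists with most of them were daughter separation and the respiratory chain. After mitosis the daughter cell digests the septum with secreted enzymes. Of 12 placed daughter-separation genes 7 lay between the parents (7 under TMM, 6 with the trend removed), 2 above, 1 below and 2 with no difference called, and 9 were lower in RM than in BY and none higher. CTS1, the chitinase that cuts the septum, ran from 714 to 959 CPM in the hybrid (median 818). Its levels were 2126, 2061, 2193, 2029 and 1993 in the BY parent, and 97.6, 143, 103, 149 and 152 in the RM parent. The groups did not overlap, and the hybrid stood -1.36 (SE 0.06) from BY and 2.57 (SE 0.10) from RM. The glucanase-like DSE2 had medians of 491 CPM in the hybrid, 1078 in BY and 40.7 in RM, DSE1 of 183 CPM in the hybrid, 412 in BY and 10.6 in RM and the glucanase DSE4 of 63.9 CPM in the hybrid, 109 in BY and 21.1 in RM. SCW11, a glucanase, had medians of 273 CPM in the hybrid, 381 in BY and 60.1 in RM, EGT2 of 2619 CPM in the hybrid, 3185 in BY and 1815 in RM and BUD9, a bud-site protein, of 69.1 CPM in the hybrid, 97.8 in BY and 34.4 in RM. With the trend removed SCW11 and EGT2 became BY-like.

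On a log scale the daughter-separation genes sat nearer to BY, and on a linear scale near the middle. Position was measured as 0 at the BY level and 1 at the RM level, and the 8 genes whose parents were at least 2-fold apart had a median position of 0.29 in log2 and 0.55 on the linear scale. CTS1 was at 0.35, DSE1 at 0.22 and DSE2 at 0.24 in log2. The alleles of DSE2 were not called different in the hybrid, with 593 BY and 641 RM reads (log2 RM over BY 0.13 (SE 0.08)), where the parents differed by -4.79 (SE 0.13). For CTS1 the RM allele gave slightly more (855 BY and 1193 RM reads, 0.50 (SE 0.06), adjusted p 3.62e-13), the reverse of the parents. Of the other members PRY3 was above both with medians of 169 CPM in the hybrid, 119 in BY and 97.5 in RM. The class of the remaining called members changed with single summed replicates and with the trend. DSE3 was above both, but BY-like without hybrid replicate 7 (hybrid minus BY 0.29, adjusted p 0.0506) or without co-culture replicate 2 (0.26, adjusted p 0.11) and also under TMM and with the trend removed. SUN4 was below both, at -0.17 (SE 0.07) against RM, but between the parents with the trend removed (hybrid minus RM 0.43, adjusted p 6.61e-07) and RM-like without any one of hybrid replicates 1, 4, 5 and 7 or co-culture replicates 2 and 4 (hybrid minus RM -0.11 to -0.19, adjusted p 0.0509 to 0.253).

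The respiratory chain showed the opposite parental direction. Its complexes pass electrons from NADH and succinate to oxygen, and Hap1 is a haem-responsive activator of several of its genes, with the BY allele known to be impaired by a transposon insertion. Of 20 placed members 19 were higher in RM, against 16.5% of all pairs. The hybrid lay between the parents at 10 (11 under TMM, 7 with the trend removed), against 4.74% of all pairs. It lay above both at 3, was BY-like at 3, RM-like at 3 and below both at 1. CYT1, cytochrome c1, ran from 282 to 333 CPM in the hybrid (median 309.6). Its levels were 109, 114, 104, 126 and 72.1 in the BY parent, and 391, 436, 434, 444 and 459 in the RM parent. All hybrid values lay between the parents, at 1.51 (SE 0.12) from BY and -0.50 (SE 0.08) from RM. RIP1, the Rieske protein, had medians of 276 CPM in the hybrid, 86.7 in BY and 358 in RM, and the external NADH dehydrogenase NDE1 of 1303 CPM in the hybrid, 583 in BY and 1876 in RM. CYT1 and RIP1 became RM-like with the trend removed, and NDE1 did not. The 11 members with parents at least 2-fold apart had a median position of 0.72 in log2 and 0.62 on the linear scale. CYC1, cytochrome c, and QCR2, a core subunit of complex III, lay above both, with medians of 448 CPM in the hybrid, 62.5 in BY and 301 in RM for CYC1 and of 1231 CPM in the hybrid, 474 in BY and 914 in RM for QCR2.

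HAP1 itself lay between its parents in the other direction. Its hybrid level ran from 207 to 268 CPM (median 238). Its levels were 435, 493, 521, 512 and 499.5 in the BY parent, and 114, 138, 189, 159 and 135 in the RM parent. The groups did not overlap. The hybrid was -1.07 (SE 0.09) from BY and 0.65 (SE 0.11) from RM, and its RM allele gave fewer hybrid reads (-0.95 (SE 0.12), adjusted p 1.3e-13). Of 7 placed Hap1 targets 3 lay between (3 under TMM, 2 with the trend removed), 2 above both and 2 were RM-like. HMG1, an HMG-CoA reductase of sterol synthesis, had medians of 1001 CPM in the hybrid, 386 in BY and 1351 in RM, and ERG11, lanosterol demethylase, of 915 CPM in the hybrid, 654 in BY and 1270 in RM. Of 18 ergosterol genes 14 were higher in RM, against 16.5% of all pairs. Among the 18, 4 lay between, 5 were RM-like, 3 below both, 2 above both and 2 BY-like. Under TMM 4 ergosterol genes were below both, and with the trend removed none was, 5 lay between, 4 were RM-like and 3 above both. Of 9 ATP synthase genes 2 lay between (1 with the trend removed) and 2 were RM-like (4 with the trend removed). The shares of all pairs in these classes were 4.74% and 10.9%. ATP1, the alpha subunit, had medians of 748 CPM in the hybrid, 604 in BY and 1229 in RM.

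Phosphate genes were lower in RM at all 5 placed members, and 4 lay between the parents (4 under TMM, 4 with the trend removed). These calls were made at 21.3% and 4.74% of all pairs. PHO84, the high-affinity phosphate transporter, had medians of 1471 CPM in the hybrid, 2748 in BY and 733 in RM, and VTC3, of the polyphosphate polymerase, of 1552 CPM in the hybrid, 3230 in BY and 1024 in RM. An annotated noncoding RNA overlaps PHO84, so its reads may not be the gene's alone. The alleles of PHO84 were not called different in the hybrid (0.02 (SE 0.05), adjusted p 0.845), against a parental difference of -1.96 (SE 0.06).

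At some of the widest parental gaps, such as GAS2 and CTR3, the alleles also differed inside the hybrid. At DSE2 they were not called different, and at CTS1 they differed in the reverse direction. CWP1 and YIR042C are given for their positions. GAS2, a glucanosyltransferase known for spore wall assembly, had medians of 126 CPM in the hybrid, 1360 in BY and 51.5 in RM, and its RM allele gave fewer hybrid reads (log2 RM over BY -2.30 (SE 0.19)). CTR3, a copper transporter, had medians of 78.9 CPM in the hybrid, 9.89 in BY and 175 in RM, with only 7 BY-parent reads in all, and its RM allele gave more hybrid reads (4.84 (SE 0.33)). CWP1, a cell wall mannoprotein, had medians of 909 CPM in the hybrid, 427 in BY and 3784 in RM. Its log2 position of 0.32 was nearer to the low parent than to the high one. The uncharacterised YIR042C had medians of 338 CPM in the hybrid, 49.4 in BY and 425 in RM and position 0.88, close to the high parent. MET17, a sulfhydrylase gene known to be deleted in BY4741, gave no BY read at all (0 of 149 in the hybrid), and its hybrid values ran from 42 to 82.2 CPM against 122 to 203 in the RM parent. Against a floor of 3 reads over the BY parent the hybrid was at least 22.6-fold higher, and hybrid minus RM was -1.32 (SE 0.16). MET17 overlaps YLR302C in the annotation. LYS2, an aminoadipate reductase, is given for its alleles and not for its parental gap. It gave 695 BY and 2 RM reads in the hybrid but 586 BY and 590 RM reads in the co-culture. Its hybrid total, almost all from the BY allele, was below both parents with medians of 274 CPM in the hybrid, 505 in BY and 392 in RM. The hybrid's RM copy came from RM11-1alpha and that of the co-culture from RM11-1a, and whether these isolates differ at LYS2 was not tested.

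At BY-like and RM-like pairs the hybrid was called different from only one of its parents. Parents were less far apart in these classes, with a median difference of 0.53 and 0.56 (log2, without sign) against 1.13 in pairs between, and pairs had fewer reads (medians of 509 and 440 in the hybrid against 799). In BY-like pairs BY was the higher parent at 159 and RM at 99, and in RM-like pairs BY was the higher at 170 and RM at 120. YBR197C had medians of 100.2 CPM in the hybrid, 109 in BY and 37.3 in RM, CAD1, an AP-1-like factor, of 60.6 CPM in the hybrid, 72.1 in BY and 21.1 in RM, and CDC33, the cap-binding protein, of 75.6 CPM in the hybrid, 72.9 in BY and 185 in RM. Among RM-like pairs BDH2 had medians of 35.9 CPM in the hybrid, 119.8 in BY and 37.3 in RM, GAT1, a nitrogen-response activator, of 55.9 CPM in the hybrid, 130.2 in BY and 47.3 in RM, PDR3, a drug-resistance factor, of 123 CPM in the hybrid, 283 in BY and 97.5 in RM, and YER187W of 73.1 CPM in the hybrid, 18 in BY and 65.1 in RM. In all of these but CAD1 the class was the same with the trend removed, where CAD1 lay between.

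Proteasome genes were mostly lower in RM. Of 24 placed genes 15 were lower in RM and 1 higher, against 21.3% and 16.5% of all pairs. Among the 24, 8 were BY-like, 5 above both, 2 RM-like and 1 below (6, 2, 4 and 2 under TMM). With the trend removed these counts were 10, 3, 2 and 0. Shares over all pairs were 9.7% BY-like, 22.4% above both, 10.9% RM-like and 12.5% below both. PRE7, a core subunit, had medians of 601 CPM in the hybrid, 613 in BY and 318 in RM, and RPN1, of the regulatory particle, of 1424 CPM in the hybrid, 1329 in BY and 1104 in RM. HXK2, the main glucose-phosphorylating hexokinase, was BY-like with medians of 2948 CPM in the hybrid, 2860 in BY and 1774 in RM. CLN3, a cyclin that starts the cycle, was RM-like with medians of 356 CPM in the hybrid, 194 in BY and 380.3 in RM, and so was MMP1, an S-methylmethionine permease, with 329 CPM in the hybrid, 151 in BY and 301 in RM. With the trend removed RPN1, HXK2 and MMP1 were above both, and under TMM CLN3 lay between.

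Position was also taken over the 127 pairs whose parents were called different, at least 2-fold apart and each with at least 10 reads. Their median was near the middle in log2, but single pairs spread widely. The median position was 0.56 in log2, with quartiles at 0.34 and 0.83, and 63 of the 127 lay from 0.25 to 0.75. Only 8 lay beyond BY and 16 beyond RM. The median taken per hybrid replicate ran from 0.54 to 0.61 (0.573 ± 0.0295, SD, n = 7). The 54 pairs higher in RM had a median of 0.60 and the 73 higher in BY of 0.50, an order that reversed under TMM (0.52 and 0.57). Counted toward the higher parent the median was 0.54 in log2 and 0.37 on the linear scale, where 0.5 is the arithmetic mean of the parents. Parental noise enters both the choice of pairs and the scale, so pairs were also chosen on some co-culture replicates and measured on the others, which gave 0.58 and 0.61.

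**Figure D4:**
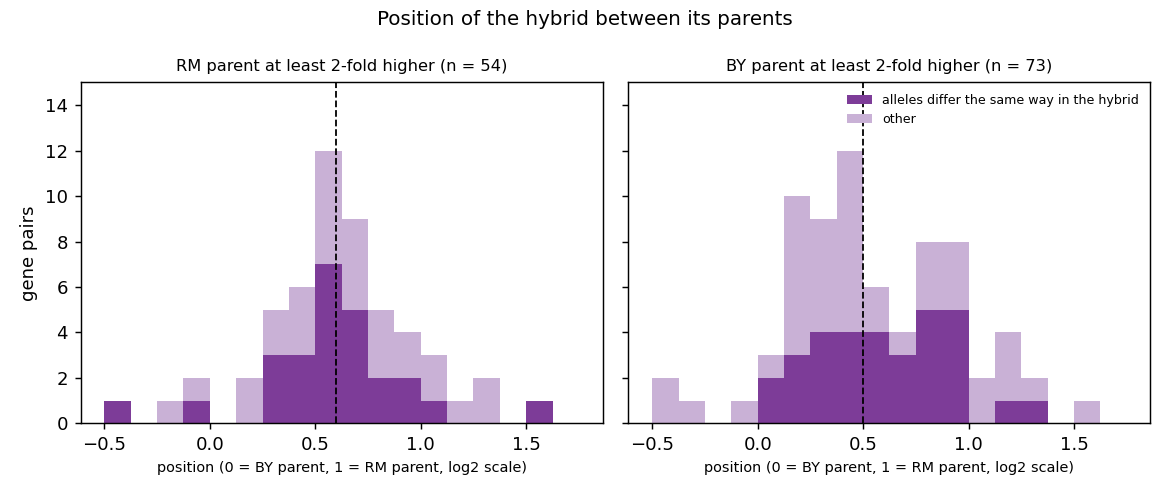
Number of gene pairs (y axis) by position of the hybrid between its parents (x axis, log2 scale, 0 at BY and 1 at RM, values beyond the axis drawn at its ends), for pairs higher in RM (left, n = 54) and higher in BY (right, n = 73); dark bars are pairs whose hybrid alleles were called different in the direction of the parents and dashed lines are medians (0.60 and 0.50). Most pairs fall inside the parental range, with 8 below 0 and 16 above 1 in all.

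How the hybrid reads divide between its alleles was not used to place the total. Over all placed pairs the alleles were called different at 544 (20.4%), with RM higher at 309 (11.6%) and BY higher at 235 (8.83%), and DESeq2 called 238. The share was 60.3% (76 of 126) in pairs between the parents, 26.4% in BY-like and in pairs below both, 24.8% in RM-like, 20.8% in pairs above both and 10.03% where no difference was called. In pairs between, 69 of the 76 went the way of the parents. The classes differ in depth and in the size of the parental gap, so the shares were also taken where parents were called and at least 2-fold apart. There the alleles differed in the parental direction at 41 of 70 pairs between (58.6%), 6 of 20 BY-like pairs and 12 of 28 RM-like pairs (42.9%), against 62 of 131 such pairs in all (47.3%). These subsets still differed in depth, with median hybrid reads of 491.5, 158.5 and 180.5, and in the parental gap, with medians of 1.78, 1.12 and 1.24 (log2, without sign), and their part in the difference between the classes was not tested. The median position was 0.57 for 58 pairs whose alleles differed in the parental direction and 0.51 for 63 pairs whose alleles were not called different.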

How the data were processed

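Per the file headers, the deposited values are raw counts, with no normalisation, of reads on strain-specific sites for each allele of 4442 gene pairs in 24 libraries. What aligner, build and filters the authors used is not given in the sources used here. Gene names, overlaps, promoters and A shares came from the RefSeq R64 annotation (4325 pairs matched, 117 did not). Within a group, libraries indistinguishable by a chi-square test (gene pairs of 20 or more reads; p of 0.05 or more, where other libraries had p under 0.001) were summed by complete linkage into 7 hybrid and 5 co-culture summed replicates. The chi-square per degree of freedom had a median of 1.06 (1.01 to 1.55) for hybrid and 1.05 (0.984 to 1.12) for co-culture libraries, and 35 of 66 hybrid and 18 of 66 co-culture pairs of libraries had p under 0.001.

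Hybrid totals, BY parent columns and RM parent columns entered 1 fit of edgeR 4.0.16 (R 4.3.3). Column totals were the library sizes, and p-values had Benjamini-Hochberg adjustment. The common dispersion was 0.00164. The BY and RM columns of a co-culture replicate come from the same libraries, but this fit treated them as independent. An alternative took the co-culture replicate as a block for RM minus BY. The allele ratio was fitted on hybrid columns with the summed replicate as a block. Simulated data of this depth were used to test the procedure. Alternatives were TMM scaling, DESeq2 1.42.0, read filters, equal depth, a minimum fold, single libraries, replicate blocks, removal of the A-share trend (loess, span 0.4) and leaving out each summed replicate. Named genes were, per class, those farthest from both parents or with the widest parental gap, given a group mean of 10 reads per library or more. For classes above and below both, hybrid values also had to overlap neither parent. To these were added members of 6 lists and, from each other list, the 3 smallest p-values for hybrid minus midparent and for RM minus BY. There were 34 lists. Not every gene this rule gives is reported here. The members, lists and tests were chosen with earlier results of these data known. Counting error limits what could be detected at pairs near the minimum of 100 reads.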

Additional observations from a re-analysis of the deposited data

Results flagged for a closer look

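In each named gene the highest or lowest summed replicate of a group was compared with the others by Dixon's gap ratio. Of 242 groups tested in 81 genes (MET17 in the BY parent had no spread to test), 19 had a replicate that stood apart, and chance alone gives about 1 in 20 groups. In the hybrid IMH1 was 502 CPM in replicate 2 (others 332 to 398), COG8 was 142 in replicate 7 (187 to 214), and RPP1A was 5360 in replicate 6 (4680 to 4800). URA4 was 1890 in hybrid replicate 2 (2090 to 2230), RIP1 was 330 in replicate 6 (265 to 290), BAT2 was 369 in replicate 6 (201 to 254), and GSY2 was 37.3 in replicate 4 (68.5 to 87.1).

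In the BY parent RPA34 was 521 CPM in replicate 3 (others 407 to 432), OAC1 was 792 in replicate 3 (666 to 695), YIR042C was 77.2 in replicate 5 (45.1 to 52.1) and PRE7 was 435 in replicate 1 (602 to 638). In the RM parent COG8 was 32.5 in replicate 1 (50.6 to 55.8), YHB1 was 1920 in replicate 1 (2270 to 2350), ENB1 was 585 in replicate 2 (601 to 603), and PRY3 was 135 in replicate 5 (94.5 to 97.6). SUN4 was 688 in RM replicate 2 (561 to 594), GAS2 was 24.4 in replicate 1 (48.7 to 55.2), HMG1 was 1520 in replicate 1 (1330 to 1380), and RIP1 was 510 in replicate 5 (338 to 382). Only the class of SUN4 changed when its own replicate was left out.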

How the results depend on the processing

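Counts of calls for the 4 differences and the 5 classes stayed within 1.5 times of the reported ones in all alternatives run but 3: DESeq2 placed 361 pairs above both, removal of the A-share trend left 197 below both, and a minimum fold left 80 between. DESeq2 also called 238 allele ratios. The median position was 0.621 with 100 reads asked of each of the 3 columns, 0.613 with the A-share trend removed, 0.522 at equal depth, 0.499 for parents at least 4-fold apart, and 0.610 for pairs chosen on co-culture replicates 4 and 5 and measured on 1 to 3. Leaving out 1 summed replicate gave positions from 0.536 to 0.591 and classes of 522 to 600 above, 295 to 323 below, 104 to 124 between, 225 to 271 BY-like and 240 to 300 RM-like. Against the linear midparent, hybrid minus midparent turned negative for CTS1 (-0.46), DSE1 (-0.11), DSE2 (-0.20), CTR3 (-0.19), MET17 (-0.33), PHO84 (-0.25) and BAT2 (-0.37). With the A-share trend removed the sign turned for RM minus BY in CWP2 (-0.041) and PGI1 (-0.0057), for hybrid minus RM in SUN4 (0.43) and RIP1 (0.032), and for hybrid minus midparent in ERG11 (0.24) and ATP1 (0.30); the cause was not tested. Same-numbered libraries correlated from -0.07 to 0.30 (8 of 12 over 0.1, 5 of 12 best with their own number). That is a hint of pairing from the data, but not every pair was over 0.1 and the labels give no shared source, so the samples were not taken as paired. With a replicate block on the 12 single libraries 619 pairs were above both, 346 below, 145 between, 265 BY-like and 292 RM-like, against 611, 343, 146, 266 and 294 without it. Summing libraries on gene totals, an alternative chosen after seeing the data, kept all these counts within 1.5 times.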

Other observations

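Other lists showed smaller or mixed placements. Over all pairs 22.4% lay above both parents and 12.5% below (16.0% and 17.2% under TMM, 20.4% and 7.4% with the A-share trend removed). Of 10 placed methionine and sulfur genes 3 lay above both and none below (2 above under TMM, 6 with the A-share trend removed). Of 17 cell-cycle genes 4 lay above both and none below, and 1 was above both under TMM and 4 with the trend removed. Of 10 genes of the TCA cycle 1 lay above both and none below, but 3 were below both under TMM, and with the trend removed 2 lay above and none below. Purine synthesis had 2 of 11 above and 2 below both, 5 below under TMM, and 3 above and 1 below with the trend removed. Of 5 placed hexose transport genes 2 lay above both (2 with the trend removed). Of 6 arginine genes 1 lay above and 1 below (2 and 0 with the trend removed). Of 4 histidine genes 1 lay above and 1 between (1 and 0 with the trend removed). Of 7 amino acid permease genes 3 lay between the parents, 1 above and 1 below (1, 3 and 0 with the trend removed). Of 4 histone genes 1 lay below both and 1 between (0 and 1 with the trend removed), and of 4 lysine genes 1 lay below both (1 with the trend removed).

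Promoter letters were also counted for other lists. AGGGG, the stress-response element, was in 72.7% of the promoters of placed stress genes against 21.6% of all. TGACTC, the core of the Gcn4 site, was in 55.6% of leucine and branched-chain promoters against 7.98%. It was not particular to that list, at 100% of the 4 histidine, 66.7% of the 6 arginine and 54.5% of the 11 purine promoters. The letters searched for Leu3 were in 22.2% of leucine and branched-chain promoters against 0.13% of all. Those searched for Hap1 were in none of the promoters of placed Hap1 targets or respiratory chain genes.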
